A study of Mus musculus with 6 samples.

Results

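Pax3, Pax7, Six2, Six4, Six5, Eya1, Eya3, Eya4 and Lbx1 belong to families of transcription factors and coactivators that act ahead of Myod1 and Myog, or beside them, in the making of muscle. These 9 genes, of 20659 that could be named, were followed by name through all probes whose transcript accession belongs to one of the symbols, 11 of the 39429 probes on the array. The samples were C2C12, a single mouse myoblast line from skeletal muscle, transfected with an siRNA to lower lncMGPF, a long noncoding RNA (si-lncMGPF, 3 samples), or labelled si-NC (3 samples), which the labels do not spell out and which served as the control. All were induced to differentiate and taken on day 2, and their total RNA went onto Agilent arrays of 1 colour. No probe carries the name lncMGPF, so its own level was not checked. Nothing in the labels says that the 3 samples of a group came from separate cultures. The p-values therefore cover the spread among these samples alone, and that spread may be technical.

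Pax3 and Pax7 are paired-box factors that mark muscle progenitors of the embryo and, for Pax7, the satellite cells of adult muscle. Six4 and its relatives are homeodomain factors that bind the MEF3 element of muscle genes such as Myog. They recruit Eya proteins, coactivators that also carry a phosphatase domain. Lbx1 is a homeodomain factor of the muscle precursors that migrate into the limb.

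The promoters of Six4 and Six2 are shown because these relatives differed in detection: the Six4 probe was well above background on all arrays and both Six2 probes on none. The sequences come from RefSeq (GRCm38.p6, from 250 bases before to 50 bases after the start of the gene, 5′ to 3′ on the strand of the gene). Capitals mark the MEF3 core TCAGGTT, read on both strands.
Six4, chr12:73113196-73113495, minus strand: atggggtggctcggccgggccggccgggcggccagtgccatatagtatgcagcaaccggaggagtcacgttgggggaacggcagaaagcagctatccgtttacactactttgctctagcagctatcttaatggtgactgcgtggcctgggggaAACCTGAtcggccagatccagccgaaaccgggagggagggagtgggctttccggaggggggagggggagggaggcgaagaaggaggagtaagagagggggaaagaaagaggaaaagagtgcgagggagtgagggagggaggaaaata
Six2, chr17:85688205-85688504, minus strand: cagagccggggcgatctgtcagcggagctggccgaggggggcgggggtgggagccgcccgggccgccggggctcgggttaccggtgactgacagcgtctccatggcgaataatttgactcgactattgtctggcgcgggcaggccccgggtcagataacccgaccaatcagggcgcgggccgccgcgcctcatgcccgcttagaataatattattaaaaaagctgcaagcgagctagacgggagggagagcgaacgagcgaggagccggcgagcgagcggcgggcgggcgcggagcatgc
The Six4 window holds the core on its opposite strand, 97 to 91 bases before the start, and the Six2 window holds no match. Of the 9 genes 6 had a promoter in the table, with 8 windows in all (Six4 and Eya4 have 2 each), and 1 of the 8 held the core. Among all 32851 promoter windows 4.07% held it. The E box CANNTG, the site of Myod1 and its relatives, stood in 3 of the 8 windows (Eya3 and both Eya4 windows), against 72.3% of all windows. The Eya4 windows overlap and share a single site. The homeodomain core TAATTA stood in 0 of the 8, against 5.29% of all windows. The Six2 window was 67.33% G and C with 37 CpG pairs and the first Six4 window 60.0% with 16, where the median of all windows was 52.7% with 7. A match is a description of the letters and not evidence that a factor binds, and a window without a match says nothing about the factor.

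At day 2 of differentiation 7 of the 9 genes were expressed in all samples of both groups, Lbx1 was at the edge of detection, and Six2 was not detected. A gene is called expressed here if at least 1 of its probes was marked as well above background on all 6 arrays. By this rule Pax3, Pax7, Six4, Six5, Eya1, Eya3 and Eya4 were expressed. Of the 11 probes of the 9 genes 7 were well above background on all 6 arrays, as were 21521 of all 39429 probes. The count is therefore not read as particular to these genes. Lbx1 was well above background on 2 of the 3 si-lncMGPF arrays and on 3 of the 3 si-NC arrays. Neither of the Six2 probes reached that mark on any array.

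How far a probe stood from the limit was read from the lowest signal that counted as well above background on the same array. That limit was 16.3, 18.4 and 19.4 intensity units on si-lncMGPF replicates 1, 2 and 3 and 14.5, 11.4 and 13.6 on si-NC replicates 1, 2 and 3. Eya1, whose human gene is mutated in branchio-oto-renal syndrome, was 1324, 821 and 736 times the limit in si-lncMGPF and 1450, 1603 and 1291 times in si-NC. Pax7 was 5.69, 2.34 and 2.04 times the limit in si-lncMGPF and 5.22, 4.51 and 4.44 times in si-NC. Lbx1 was 2.25, 1.35 and 1.13 times the limit in si-lncMGPF and 2.84, 3.76 and 2.81 times in si-NC. At 1.13 times, on si-lncMGPF replicate 3, it was still not marked as well above background. The limit is the lowest signal so marked and not a threshold for every probe. These ratios say how well each probe could be read, and they do not rank transcripts, because probes differ in how strongly they bind.

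**Figure D1:**
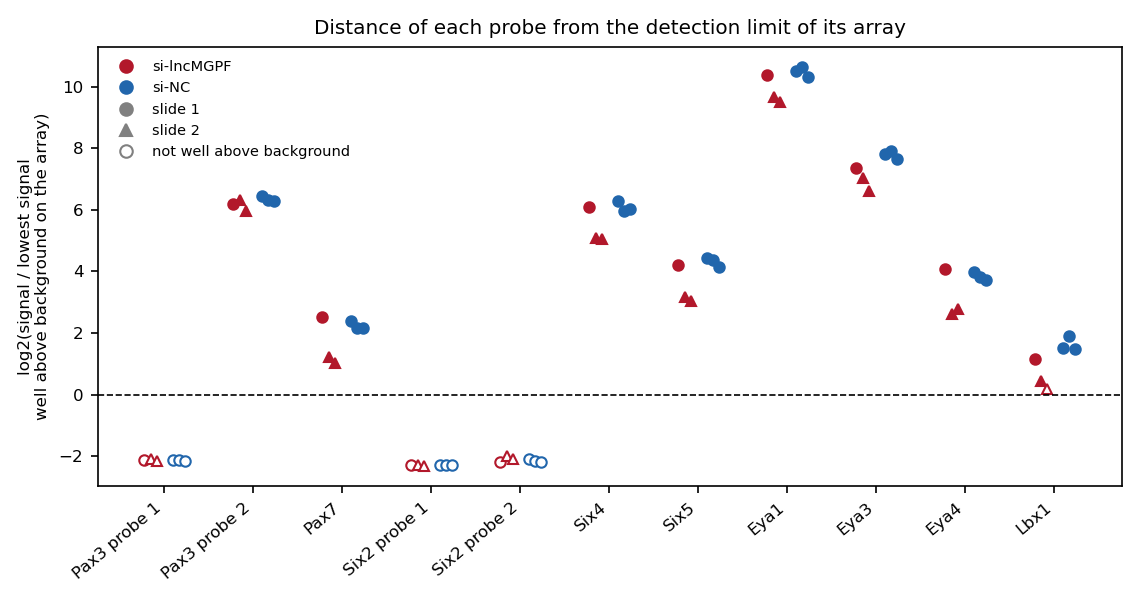
Signal of each of the 11 probes on each array, as log2 of its ratio to the lowest signal well above background on that array (y axis), with si-lncMGPF left of si-NC for each probe on the x axis. Circles are slide 1, triangles slide 2, and open symbols are not well above background. The dashed line is that lowest signal, and a probe above it can still be unmarked. The first Pax3 probe and both Six2 probes lie below the line on all 6 arrays, and Lbx1 lies closest above it.

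In the file headers si-lncMGPF replicate 1 shares a scan identifier with the 3 si-NC arrays, and si-lncMGPF replicates 2 and 3 share another. Each identifier was taken to stand for a slide, called slide 1 and slide 2 here. The labels give no slide. Slide 2 had higher net signal on negative controls (37.3 and 42.5 units, against 20.1 to 21.8 on slide 1) and fewer probes above background (57.3% and 56.9%, against 64.1% to 65.3%). Slide therefore moves with group for 2 of the 3 si-lncMGPF arrays, and values within slide 1 or with slide in the model are given beside the results. Of 7 markers of differentiating muscle (Des, Myog, Mymk, Acta1, Ckm, Myh3 and Tnnt2) 7 were above background on all arrays, with summed signals of 38896 to 84542 units in si-lncMGPF and 61219 to 77968 in si-NC. Of 2 markers of undifferentiated myoblasts (Myf5 and Cdh15) 2 were, with sums of 9993 to 20463 units in si-lncMGPF and 15863 to 21478 in si-NC. The sums are of signals before scaling, and slide 2 was dimmer (75th percentile 580.2 and 492.1 units, against 688.2 to 930.7 on slide 1). After scaling, log2 changes by brightest probe were 0.09 for Myog, 0.04 for Des, 0.13 for Ckm and 0.17 for Mymk. They were -0.30 for Acta1, -0.15 for Tnnt2, -0.15 for Myh3, -1.20 for Myf5 and -0.15 for Cdh15, none past the threshold. Of the epithelial markers Epcam and Krt8 were above background on no array and Cdh1 on 2, and of the adipocyte markers Adipoq was on none and Plin1 on 1. Sox10, a factor of the neural crest, a lineage that also uses Pax3, was above background on all 6 arrays. Of the endothelial and leukocyte markers Pecam1 and Kdr were above background on all 6 arrays, Ptprc on 5 and Cdh5 on 0. For Kdr this was its brightest probe, and its other probe was above background on no array. By brightest probe the sums before scaling were 769 to 1406 units in si-lncMGPF and 1163 to 1234 in si-NC. The part of other cell types in the results was not tested. In such samples fewer cells that express a gene and less RNA per cell cannot be told apart.

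Whether lowering lncMGPF goes with a change in these genes was the question of the comparison, and 0 of their 8 tested probes passed the threshold in either direction, an adjusted p of 0.05 in limma with Benjamini-Hochberg adjustment over all tested probes. Of all 24656 tested probes 0.105% passed, 0.0284% higher and 0.0771% lower in si-lncMGPF, and the count of 0 is near that background. At an unadjusted p below 0.05 the count was also 0 of 8, against 15.8% of all tested probes. Both counts are of the fit without slide. With slide as a block the change rests on the si-lncMGPF array of slide 1, and it ranged from -0.39 (Lbx1) to 0.35 (Pax7). In the fit without slide the log2 change was positive for 5 of the 8 and negative for 3. Its median was 0.08, where the median of all tested probes was 0.01. Without scaling between arrays only Pax3 was positive (0.26), and the median of all tested probes was -0.28. For 0 of the 8 were the groups of arrays without overlap, against 22.9% of all tested probes. A probe was tested if all 3 arrays of si-lncMGPF or all 3 of si-NC had it well above background. The 8 therefore leave out both Six2 probes and the first of the Pax3 probes, and the Lbx1 probe entered through si-NC alone.

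**Figure D2:**
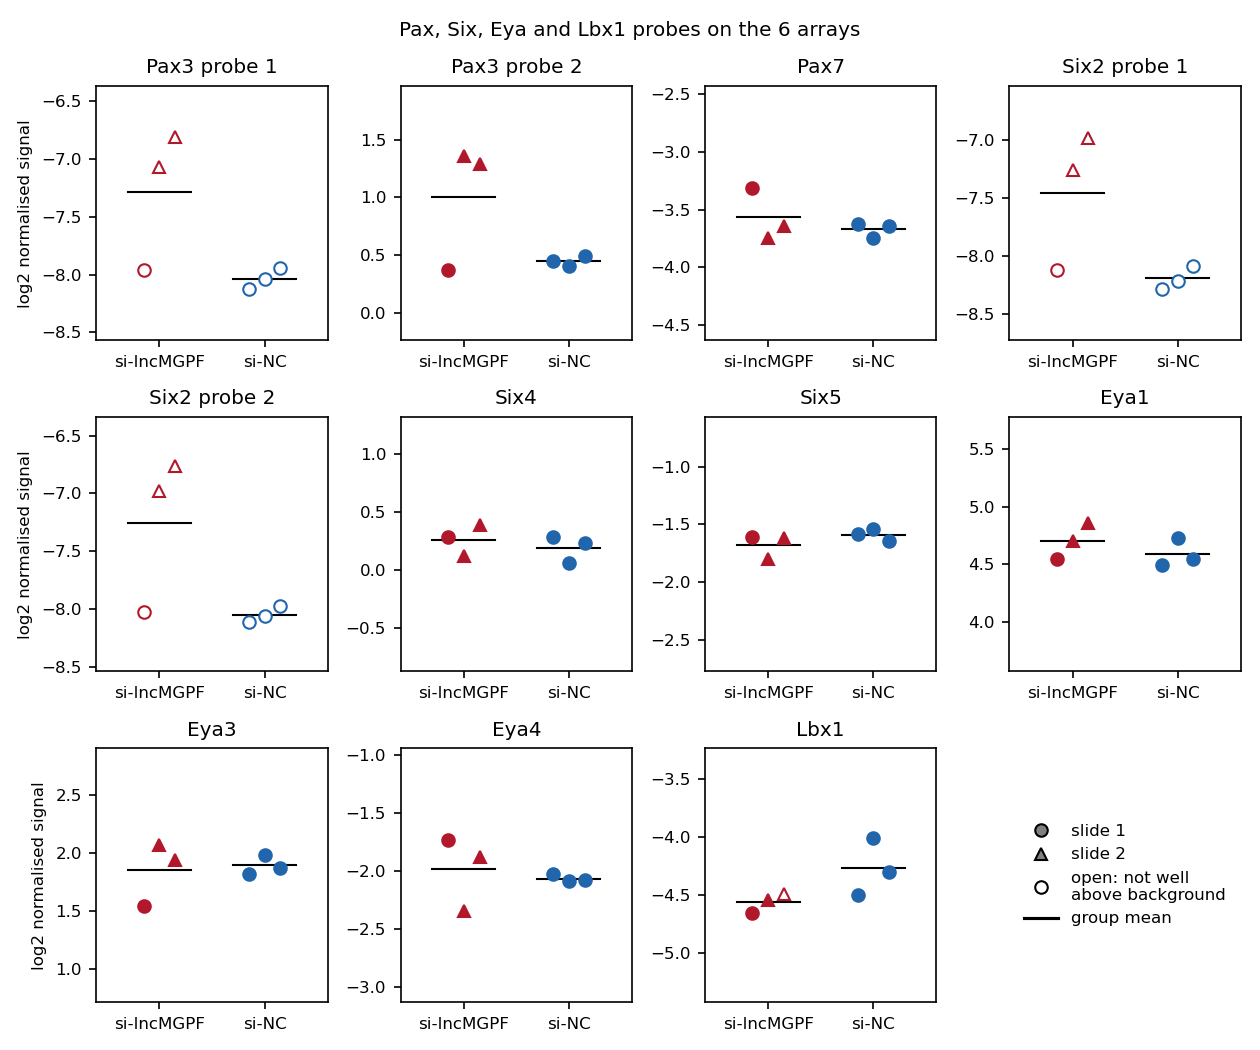
Log2 normalised signal (on the log2 scale, relative to the 75th percentile of its array) of each probe on each array, with si-lncMGPF left and si-NC right. Every panel spans the same number of log2 units around its own values, circles are slide 1, triangles slide 2, open symbols are not well above background, and black lines are group means. In the Pax3 probe 2 panel both slide 2 arrays lie above the other 4, while the Six4 and Six5 panels show overlapping groups.

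Pax3, which acts in the muscle progenitors of the embryo, had the log2 change of the largest size among the 8 tested probes, without passing the test. It is read by a pair of probes, A_51_P315734 (the first) and A_55_P2033705 (the second), that are assigned to the same transcript, and they gave opposite answers on its expression. The second probe had log2 normalised signals of 0.37, 1.36 and 1.29 in si-lncMGPF and 0.45, 0.41 and 0.49 in si-NC. Both slide 2 arrays of si-lncMGPF were high, and the si-lncMGPF array of slide 1 lay just below all 3 si-NC arrays. On the log2 scale the change was 0.56 (SE 0.26, 95% interval -0.06 to 1.17, adjusted p = 0.347 in limma), a fold of 1.47 with an interval of 0.959 to 2.26.

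Within slide 1 the Pax3 change was -0.08, from 1 si-lncMGPF array, and the slide 2 arrays gave 0.87 against the same si-NC arrays. Inside the si-lncMGPF group the slides differed by 0.95 for this probe. Of all tested probes 4.87% had a gap of that size or more in either direction, and 0.877% in the same direction. With si-lncMGPF replicate 1 left out, so that each slide holds 1 group, Pax3 passed in limma (log2 change 0.87, adjusted p = 0.00282), a fit in which 4228 of 24724 probes passed. It also passed with array weights (0.77, adjusted p = 0.00311), where 10212 of 24656 probes did. With slide as a random block the change was 0.11 (adjusted p = 0.790). Pecam1, an endothelial and leukocyte marker, had a log2 change of -0.04 within slide 1 and 1.02 on slide 2, and its part in the Pax3 values was not tested. Kdr, another endothelial marker, had 0.01 and -0.19 on its brightest probe. Ptprc, a leukocyte marker above background on 5 arrays, had -0.28 and -0.06, and Cdh5 was above background on no array. Adjusted p ranged from 0.00282 to 0.826 over the alternatives. As scanned, before scaling, the signals were 1193, 1486 and 1201 units in si-lncMGPF and 1270, 913 and 1060 in si-NC, so the groups overlapped. The 75th percentile that scales them was 923, 580.2 and 492.1 units on the si-lncMGPF arrays and 930.7, 688.2 and 755.1 on the si-NC arrays.

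The first Pax3 probe is printed at 10 spots on each array, and 0 of the 10 were well above background on any array. Its mean signal was 3.71, 4.31 and 4.38 units in si-lncMGPF and 3.34, 2.62 and 3.07 in si-NC, with the outlier spots of 2 arrays left out. That is 0.228, 0.234 and 0.226 times the limit of the array in si-lncMGPF and 0.231, 0.230 and 0.225 times in si-NC, so neither group came near detection. Which part of the transcript each probe reads was not used here, and the second probe alone is the basis for calling Pax3 expressed.

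Pax7, the paired-box factor that satellite cells keep and that is lost as myoblasts differentiate, was measured near the lower end of the array's range. Its log2 normalised signal was -3.32, -3.75 and -3.64 in si-lncMGPF and -3.62, -3.74 and -3.64 in si-NC. The slide 1 array of si-lncMGPF stood above all others, and the slide 2 arrays lay close to the si-NC arrays. The fitted log2 change was 0.10 (SE 0.13, 95% interval -0.21 to 0.41, adjusted p = 0.715 in limma), with 0.35 within slide 1 and -0.03 on slide 2. The interval allows folds from 0.864 to 1.33. Feature Extraction's own error of a single spot was 10.7% of the signal on the slide 1 array of si-lncMGPF and 14.3% and 14.9% on the slide 2 arrays, against 10.9% to 11.1% in si-NC.

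Six4, which binds MEF3 elements in muscle genes such as Myog, was close in the groups. The log2 normalised signal of its probe was 0.28, 0.12 and 0.39 in si-lncMGPF and 0.29, 0.06 and 0.23 in si-NC. The ranges overlapped, with the highest array in si-lncMGPF and the lowest in si-NC. The log2 change was 0.07 (SE 0.11, 95% interval -0.20 to 0.33, adjusted p = 0.771 in limma), with 0.09 within slide 1 and 0.06 on slide 2.

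Six5, a relative whose human gene lies beside DMPK at the locus of myotonic dystrophy, had the narrowest interval of the 8. Its log2 normalised signal was -1.61, -1.80 and -1.62 in si-lncMGPF and -1.59, -1.54 and -1.64 in si-NC. Replicate 2 of si-lncMGPF was the one low array. On the log2 scale the change was -0.09 (SE 0.09, 95% interval -0.31 to 0.14, adjusted p = 0.657 in limma), with -0.02 within slide 1 and -0.12 on slide 2.

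Six2, best known for keeping the progenitors of the kidney, had signals of 3.31, 3.78 and 3.90 units on its first probe in si-lncMGPF and 2.98, 2.31 and 2.78 in si-NC. On its second probe they were 3.55, 4.60 and 4.53 units in si-lncMGPF and 3.36, 2.58 and 3.01 in si-NC. Both probes were in the background in both groups, so no fold is given. After scaling, the slide 2 arrays stood above slide 1 within si-lncMGPF by 1.01 and 1.15 on the log2 scale, where the median of 12140 probes above background on no array was 1.02. That shift of background readings is shared by the undetected Pax3 probe, at 1.02.

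Eya1, Eya3 and Eya4, the coactivators of Six4 and its relatives, were all expressed, and their groups overlapped. Eya1 had log2 normalised signals of 4.55, 4.71 and 4.86 in si-lncMGPF and 4.49, 4.73 and 4.54 in si-NC. Replicate 3 of si-lncMGPF was the highest array and replicate 1 of si-NC the lowest. The fitted log2 change was 0.11 (SE 0.12, 95% interval -0.17 to 0.39, adjusted p = 0.646 in limma), with -0.04 within slide 1 and 0.19 on slide 2. The brightest of 5 equal bins of tested probes, in which Eya1 lies, had median changes of -0.11 and 0.13 on the same slides.

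Eya3, a coactivator of the same family, had log2 normalised signals of 1.55, 2.07 and 1.94 in si-lncMGPF and 1.82, 1.99 and 1.88 in si-NC. The slide 1 array of si-lncMGPF was the lowest of the 6. Its log2 change was -0.04 (SE 0.15, 95% interval -0.40 to 0.31, adjusted p = 0.9 in limma), with -0.35 within slide 1 and 0.11 on slide 2.

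Eya4, whose human gene is tied to inherited hearing loss, had log2 normalised signals of -1.73, -2.34 and -1.88 in si-lncMGPF and -2.03, -2.09 and -2.08 in si-NC. Here si-lncMGPF held both the highest array, replicate 1, and the lowest, replicate 2, and the si-NC arrays lay between them. The log2 change was 0.08 (SE 0.16, 95% interval -0.31 to 0.47, adjusted p = 0.814 in limma), with 0.34 within slide 1 and -0.04 on slide 2. The SD was 0.32 in si-lncMGPF and 0.03 in si-NC (n = 3 each), where the medians over all tested probes were 0.20 and 0.08.

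Lbx1, needed for muscle precursors to reach the limb, was lower on average in si-lncMGPF without passing the test. Its probe was tested through si-NC alone, the group in which it was higher. That filter favours a lower si-lncMGPF mean, so no conclusion is drawn from the direction. Its log2 normalised signal was -4.65, -4.55 and -4.50 in si-lncMGPF and -4.50, -4.01 and -4.30 in si-NC. The groups met at -4.50, the value of si-lncMGPF replicate 3 and of si-NC replicate 1. On the log2 scale the change was -0.30 (SE 0.14, 95% interval -0.63 to 0.04, adjusted p = 0.353 in limma), with -0.39 within slide 1 and -0.25 on slide 2. On the scanned scale it read 36.6, 24.8 and 21.8 units in si-lncMGPF and 41.1, 42.8 and 38.3 in si-NC. Its spot error was 20.2% and 22.5% of the signal on the slide 2 arrays of si-lncMGPF, and at most 13.5% in si-NC. With normexp on the median spot signal and local background, and an offset of 50, the log2 change was 0.16. Which of these choices turned the sign was not tested.

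**Figure D3:**
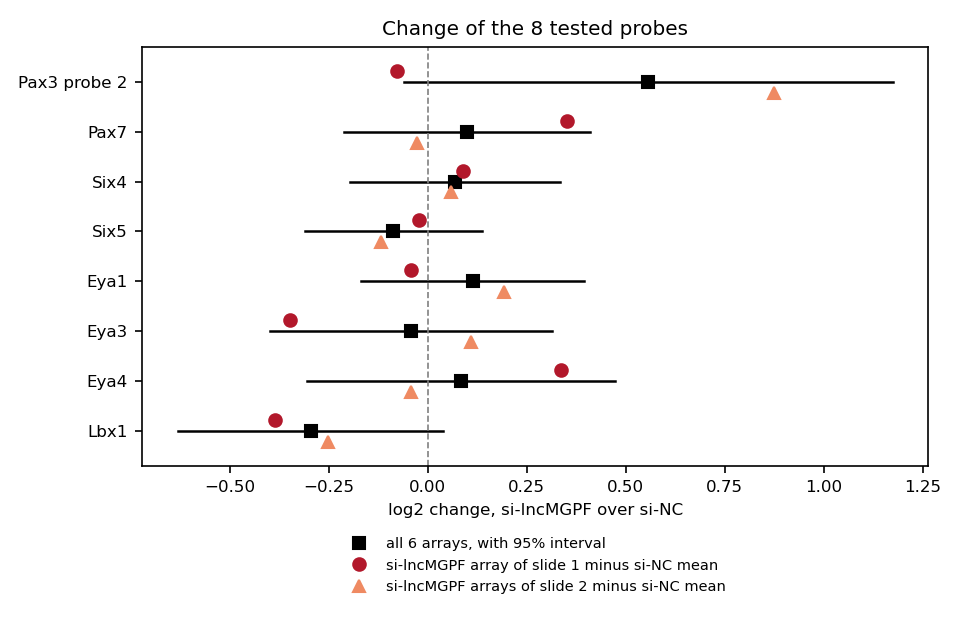
Log2 change of si-lncMGPF over si-NC (x axis) for the 8 tested probes. Squares with bars are the fit to all 6 arrays with its 95% interval, circles the slide 1 array of si-lncMGPF and triangles the slide 2 arrays, both minus the si-NC mean. Every interval includes 0, and the slide values lie farthest apart for Pax3 (-0.08 and 0.87).

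**Figure D4:**
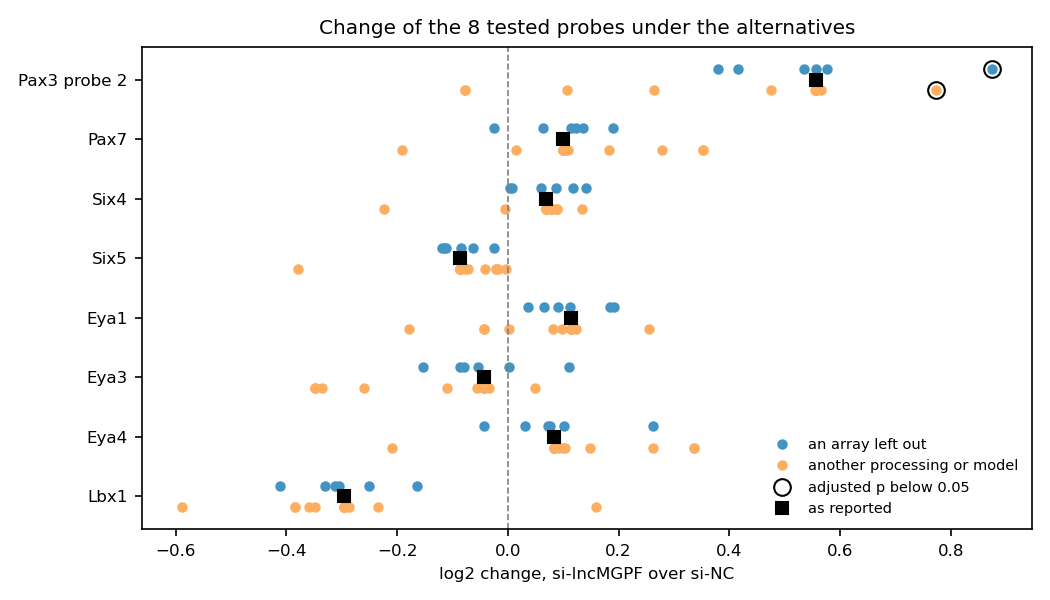
Log2 change of si-lncMGPF over si-NC (x axis) for the 8 tested probes under the alternatives. Black squares are the values as reported, blue points leave out an array, orange points use another processing or model, and black rings mark an adjusted p below 0.05. Rings appear for Pax3 alone, at 0.77 and 0.87, and its points reach down to -0.08.

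Within si-lncMGPF the genes did not move together. The slide 1 array lay outside the si-NC range for 5 of the 8 probes, above it for Pax7 and Eya4 and below it for Pax3, Eya3 and Lbx1, against 75.8% of all tested probes. The slide 2 arrays minus the slide 1 array of si-lncMGPF gave 0.95 for Pax3, 0.46 for Eya3, 0.23 for Eya1 and 0.13 for Lbx1. The same difference was -0.03 for Six4, -0.10 for Six5, -0.38 for Pax7 and -0.38 for Eya4, and the median size over all tested probes was 0.31. For Six4, Six5 and Lbx1 (tested through si-NC alone) both slides gave a change of the same sign. For the other 5 the signs differed, with several values near 0. The share of all tested probes with differing signs was not counted. In each equal bin of tested probes by signal the median changes on the slides also differed in sign. Whether slide or the state of the cells accounts for the differences between slides cannot be told apart, because slide 2 holds no si-NC array.

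The named genes with the closest pattern were found by Pearson's r over the 6 arrays among 16013 probes above background on all of them, as a description that rests on arrays sharing slide and scaling. For Pax3 they were Cetn2 (r = 0.999), which encodes a centrin of the centrosome, and Rpl15 (r = 0.998), a ribosomal protein gene. For Eya3 they were Rnf111 and Med15 (both r = 0.999), for Pax7 L3mbtl2 and Cdv3 (both r = 0.996), and for Eya4 Ccpg1 and Psme4 (both r = 0.997). Eya1 was closest to Tmem239 (r = 0.995) and Macrod2 (r = 0.991), Six5 to Arhgap42 (r = 0.994) and Gas7 (r = 0.985), and Six4 to Fam13b (r = 0.983) and Mapk6 (r = 0.971). Probes with r over 0.95 numbered 757 for Pax3, 912 for Eya3 and 350 for Eya4, against 147 for Pax7, 56 for Eya1, 17 for Six5 and 14 for Six4.

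Genes related to these factors in different ways were followed through 5 lists of 47 genes. The lists are cofactors, described targets, other premyogenic factors, other Pax genes, and surface genes of satellite cells and myoblasts. The brightest probe stood for a gene. Of the 47, 37 were tested and 10 had no probe above background on any array. None of the 37 passed the threshold in either direction, where 0.147% of all 14256 tested genes did. At an unadjusted p below 0.05 in limma there were 3 higher and 5 lower, 21.6% of the 37 against 14.2% of all tested genes, and the groups did not overlap for 12 of the 37 (32.4%, against 22.3%). The median log2 change was -0.01, against 0.02 over all tested genes.

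Cofactors of these proteins were tested in 7 of 8 cases, all but Dach2, and 0 passed (median log2 change -0.01). Sobp, named for the binding of its fly counterpart to sine oculis, the fly relative of Six4, had log2 normalised signals of -0.79, -0.59 and -0.56 in si-lncMGPF and -0.16, -0.14 and -0.14 in si-NC. All 3 si-lncMGPF arrays lay below the si-NC arrays. The fitted log2 change was -0.50 (SE 0.09, adjusted p = 0.164 in limma), with -0.64 within slide 1 and -0.43 on slide 2. Kmt2d, a histone methyltransferase, had -2.17, -2.41 and -2.44 in si-lncMGPF and -1.88, -1.71 and -1.80 in si-NC, also without overlap. Its log2 change was -0.55 (adjusted p = 0.175 in limma) on the brightest probe and -0.18 on another, and one more probe was above background on no array.

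Genes described as targets of these factors were all tested, 12 of 12, with 5 positive and 7 negative changes (median -0.06) and 0 past the threshold. Met, the receptor of migrating muscle precursors, had log2 normalised signals of -2.33, -2.27 and -2.36 in si-lncMGPF and -2.67, -2.58 and -2.49 in si-NC. The groups did not overlap, and the log2 change was 0.26 (SE 0.09, adjusted p = 0.26 in limma), with 0.25 within slide 1 and 0.26 on slide 2. Itm2a, a membrane protein gene activated by Pax3, had -5.34, -4.73 and -3.80 in si-lncMGPF and -5.66, -5.58 and -5.40 in si-NC (log2 change 0.92, adjusted p = 0.292). Its change was 0.20 within slide 1 and 1.28 on slide 2. This probe read close to the detection limit on all arrays, where background readings were shifted upward on slide 2, and the part of that shift was not tested.

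Myf5, a direct target of Pax3 and Pax7, had log2 normalised signals of 0.98, -0.27 and -0.72 in si-lncMGPF and 1.22, 1.19 and 1.16 in si-NC, with the slide 2 arrays low. Myod1 had -0.06, 0.11 and 0.17 in si-lncMGPF and -0.09, 0.12 and 0.01 in si-NC, and Myog 3.40, 3.22 and 3.47 in si-lncMGPF and 3.28, 3.29 and 3.27 in si-NC. The groups overlapped for Myod1 and Myog. None of these 3 passed (adjusted p = 0.257, 0.808 and 0.661 in limma).

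Other factors of the premyogenic programme were tested in 7 of 10 cases (median log2 change -0.01, 0 past the threshold), while Meox1, Meox2 and Tcf21 were above background on no array. Of 7 other Pax genes Pax2 and Pax8 were above background on all 6 arrays, with log2 changes of -0.04 and -0.35 (neither past the threshold). Pax1, Pax4, Pax5, Pax6 and Pax9 were on none. For Pax2 this was its brightest probe, and its other probe was above background on 2 si-NC arrays alone and was not tested. Surface genes of satellite cells and myoblasts were tested in 9 of 10 cases, with 6 positive and 3 negative changes (median 0.02) and 0 past the threshold. Calcr, a receptor of quiescent satellite cells, was above background on no array. Sdc3, a syndecan of satellite cells, had log2 normalised signals of 0.25, -0.05 and -0.12 in si-lncMGPF and 0.37, 0.28 and 0.36 in si-NC (log2 change -0.31, adjusted p = 0.291 in limma).

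**Figure D5:**
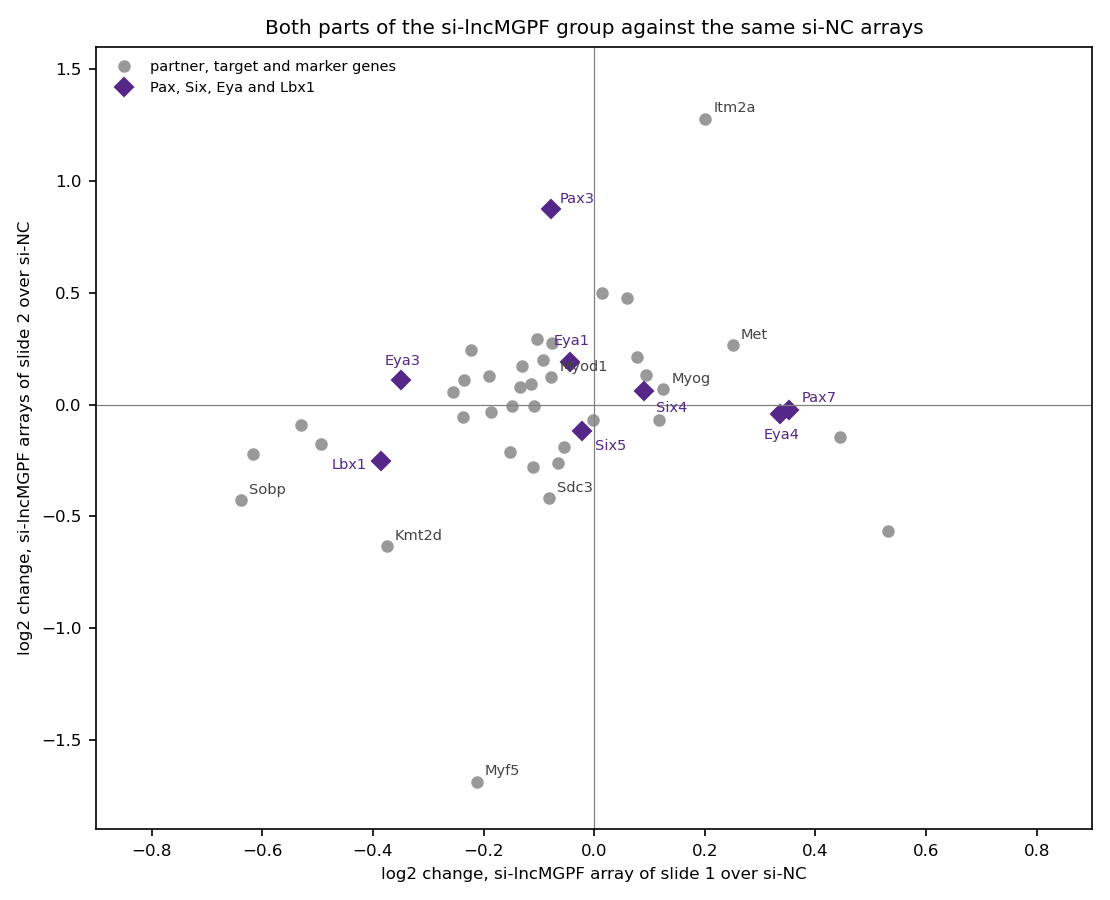
Log2 change of the slide 1 array of si-lncMGPF (x axis) and of the slide 2 arrays (y axis), both over the same 3 si-NC arrays. Diamonds are the 8 tested probes and circles the 37 tested genes of the lists. Pax3 lies high on the y axis alone (0.87), Myf5 low on it (-1.69), and Met (0.25 and 0.26) and Sobp (-0.64 and -0.43) lie away from 0 on both axes.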

How the data were processed

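Total RNA of 6 C2C12 samples carried Cy3, per the labels, on arrays of 1 colour. The deposited scanner tables hold intensity values that Feature Extraction 11.0.1.1 corrected for background, per the file headers, and the series table deposited by the authors held the same intensity at 44397 of 44397 spots. The spot errors are also intensity values per the file headers. The flags of each spot (well above background, saturated, outlier) are other values of 0 or 1, per the file headers. The array design refers to mm9.

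Samples were grouped by their labels. Processed signals were taken to log2 and set relative to the 75th percentile of non-control spots on the array, with outlier spots (117 to 134 per array) left out and spots of a probe averaged; no spot was saturated. This scaling hides a shift of most transcripts in one direction. Accessions without version were matched to RefSeq's gene table (GRCm38.p6, for names alone), naming 27234 probes. The group comparison used limma 3.58.1 (R 4.3.3) with no covariates, at an adjusted p below 0.05. The number of arrays limits the precision. The fit was tested on simulated data with independent noise, the same spread in both groups and no slide effect. These data differ on the last points, so that test does not cover them. Promoters come from RefSeq (GRCm38.p6). Figures used matplotlib 3.10.9.

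The members and lists were chosen with earlier results of these data known. From the lists, genes past the threshold or else the 6 with the smallest p, and Myod1, Myog and Myf5, were named. For each expressed member the 2 genes closest by Pearson's r were named. Of probes not above background no fold is given. The alternatives were other scalings, background corrections, filters, priors, weights, slide or replicate number in the model, the series table and arrays left out in turn. Normexp used the median spot signal and local background. The run without scaling was chosen after seeing the data. Some marker genes are not reported here.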

Additional observations from a re-analysis of the deposited data

How the results depend on the processing

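Under the alternatives the count of called probes of the 9 genes was 0, except with array weights and without si-lncMGPF replicate 1, where it was 1 (Pax3), a range of 0 to 1 over the arrays left out. Over all probes limma called 26 (7 higher, 19 lower), against 6 with quantile normalization (1 higher, 5 lower), 8 with normexp (4 and 4), 10212 with array weights (5159 and 5053), 10 with slide as a block (3 and 7), 1 on the slide 1 arrays alone, and 530 with no scaling between arrays (6 and 524). It called 0 without a filter on dim probes (5277 at an unadjusted p below 0.05) and 0 with the replicate block (4432). Leaving out an array gave 0 to 4228 calls: 0 without si-NC replicate 1, 2 or 3 or si-lncMGPF replicate 3 (2705, 1930, 1890 and 2233 at an unadjusted p below 0.05), 4 when si-lncMGPF replicate 2 was left out, and 4228 for si-lncMGPF replicate 1. The cause was not tested, apart from slide and group coinciding in the last of these.

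With slide as a block and on slide 1 alone the log2 change was -0.078 for Pax3 and -0.043 for Eya1. Normexp gave -0.0052 for Six4 and 0.16 for Lbx1, and array weights gave 0.048 for Eya3. Without scaling it was -0.19 for Pax7, -0.22 for Six4, -0.18 for Eya1 and -0.21 for Eya4, where the median of all tested probes was -0.28; relative to that median these were 0.09, 0.06, 0.10 and 0.07. Over the arrays left out, the log2 change ranged from -0.026 to 0.19 for Pax7, from -0.15 to 0.11 for Eya3, from -0.043 to 0.26 for Eya4, from -0.41 to -0.16 for Lbx1, from 0.0033 to 0.14 for Six4, from 0.037 to 0.19 for Eya1, from -0.12 to -0.025 for Six5 and from 0.38 to 0.87 for Pax3. Six5 kept its sign in all 19 alternatives, but these are not 19 separate checks. The filters, the prior, the replicate block and the series table left its estimate as it was. Slide as a block and slide 1 alone gave the same estimate. With the replicate block no probe of these genes was called, and same-numbered samples correlated in their deviations from the group means at 0.18, 0.32 and -0.06 for replicates 1, 2 and 3, so the numbers were not taken to pair them; replicate 3 of si-lncMGPF correlated best with replicate 1 of si-NC. By signal above the highest negative control spot, 8 of the 9 genes were expressed, Lbx1 added.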
